A study of Mus musculus with 4 samples.

Results

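The heat shock proteins and their DnaJ partners were examined in 4 sections of injured neonatal mouse heart. Members were all genes whose symbol begins with Hspa, Hspb, Hspd, Hspe, Hsph, Hsp90, Dnaja, Dnajb or Dnajc, which gave 75 of the 32285 measured genes. By where the protein works, 11 were cytosolic Hsp70, Hsp110 or Hsp90 genes, 25 cytosolic or nuclear DnaJ genes, 7 small heat shock genes, 9 mitochondrial and 14 endoplasmic reticulum (ER) genes. The other 9 were grouped by name alone, among them Hspbp1, Hspb11, Hspa12a, Hspa12b and Dnajc28.

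Chaperones bind unfolded protein and help it fold, refold or be cleared. Hsp70 proteins do this in cycles of ATP hydrolysis that DnaJ (Hsp40) proteins start, and Hsp110 and Hsp90 proteins act after or beside them, while small heat shock proteins hold unfolded protein without ATP. Each compartment has its own set, and heart muscle is known for its high content of small heat shock proteins, several of which bind the contractile apparatus.

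All 4 hearts came from ICR mice whose left ventricular apex was touched for 5 seconds with a cooled probe on postnatal day 1, so every section is of a cryoinjured heart, and no uninjured section was analysed here. The hearts were taken 1, 4, 7 and 14 days later (d1, d4, d7 and d14), at postnatal days 2, 5, 8 and 15, and each time point had 1 fresh frozen section of 10 µm. RNA was read on Visium arrays, whose barcoded spots each cover a small patch of tissue that can hold several cells. Age and time after injury therefore move together, and a difference between time points cannot be told apart from one between animals.

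Spots with at least 500 UMIs (unique molecular identifiers, each counting 1 captured RNA molecule) numbered 445 to 1175 in a section, with a median of 3770 UMIs per spot at d14 and of 7810 to 8028 at the other time points. Levels are given as CPM, the UMIs of a gene per 1000000 UMIs of the section without haemoglobin and mitochondrially encoded genes. A single UMI was worth 0.171 to 0.31 CPM. All 15 cardiomyocyte markers were detected in every section and summed to 93632, 81036, 99029 and 124027 CPM in order of time. Fibroblast markers summed to 867, 1697, 2023 and 4366 CPM, and macrophage markers to 355, 281, 325 and 791. The part of these shifts in the differences below was not tested, and in such sections fewer cells of a type and less RNA per cell cannot be told apart.

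Summed over all members, the share of UMIs was 0.761, 0.80, 0.768 and 0.877% in order of time, from 24531 to 46773 UMIs in a section. Of the 75 members, 52 reached 20 CPM in at least 1 section and 3 (Dnajb7, Dnajb8 and Dnajc5g) had no UMI in any. A member was counted as higher or lower than at d1 when it had at least 20 CPM in 1 of the 2 sections, differed at least 1.5-fold and had a 95% interval of the ratio without 1. These intervals cover counting error only, and with 1 section per time point there is no test between time points.

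At d4, 6 of 50 members with enough UMIs were higher and 1 was lower, against 14.8% and 3.56% of all genes. At d7, 3 of 48 were higher and 3 lower, against 8.34% and 8.05% of all genes. At d14, 10 of 50 were higher and 4 lower, against 15.6% and 16.2%. With a 2-fold rule, 1 member was higher at d4 (background 4.69%), 1 at d7 (3.45%) and 8 at d14 (7.32%). No member was 2-fold lower at d4 (1.44%) or d7 (2.85%), and 2 were at d14 (6.07%). These splits depend on the scaling, since TMM scaling gave 2 higher and 5 lower at d4, and CPM over all genes gave 3 higher and 6 lower at d7. Of the 52 members that reached the minimum, 36 were counted in no comparison, 9 in 1, 3 in 2 and 4 in all 3. The 16 counted at least once are described with their classes.

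**Figure D1:**
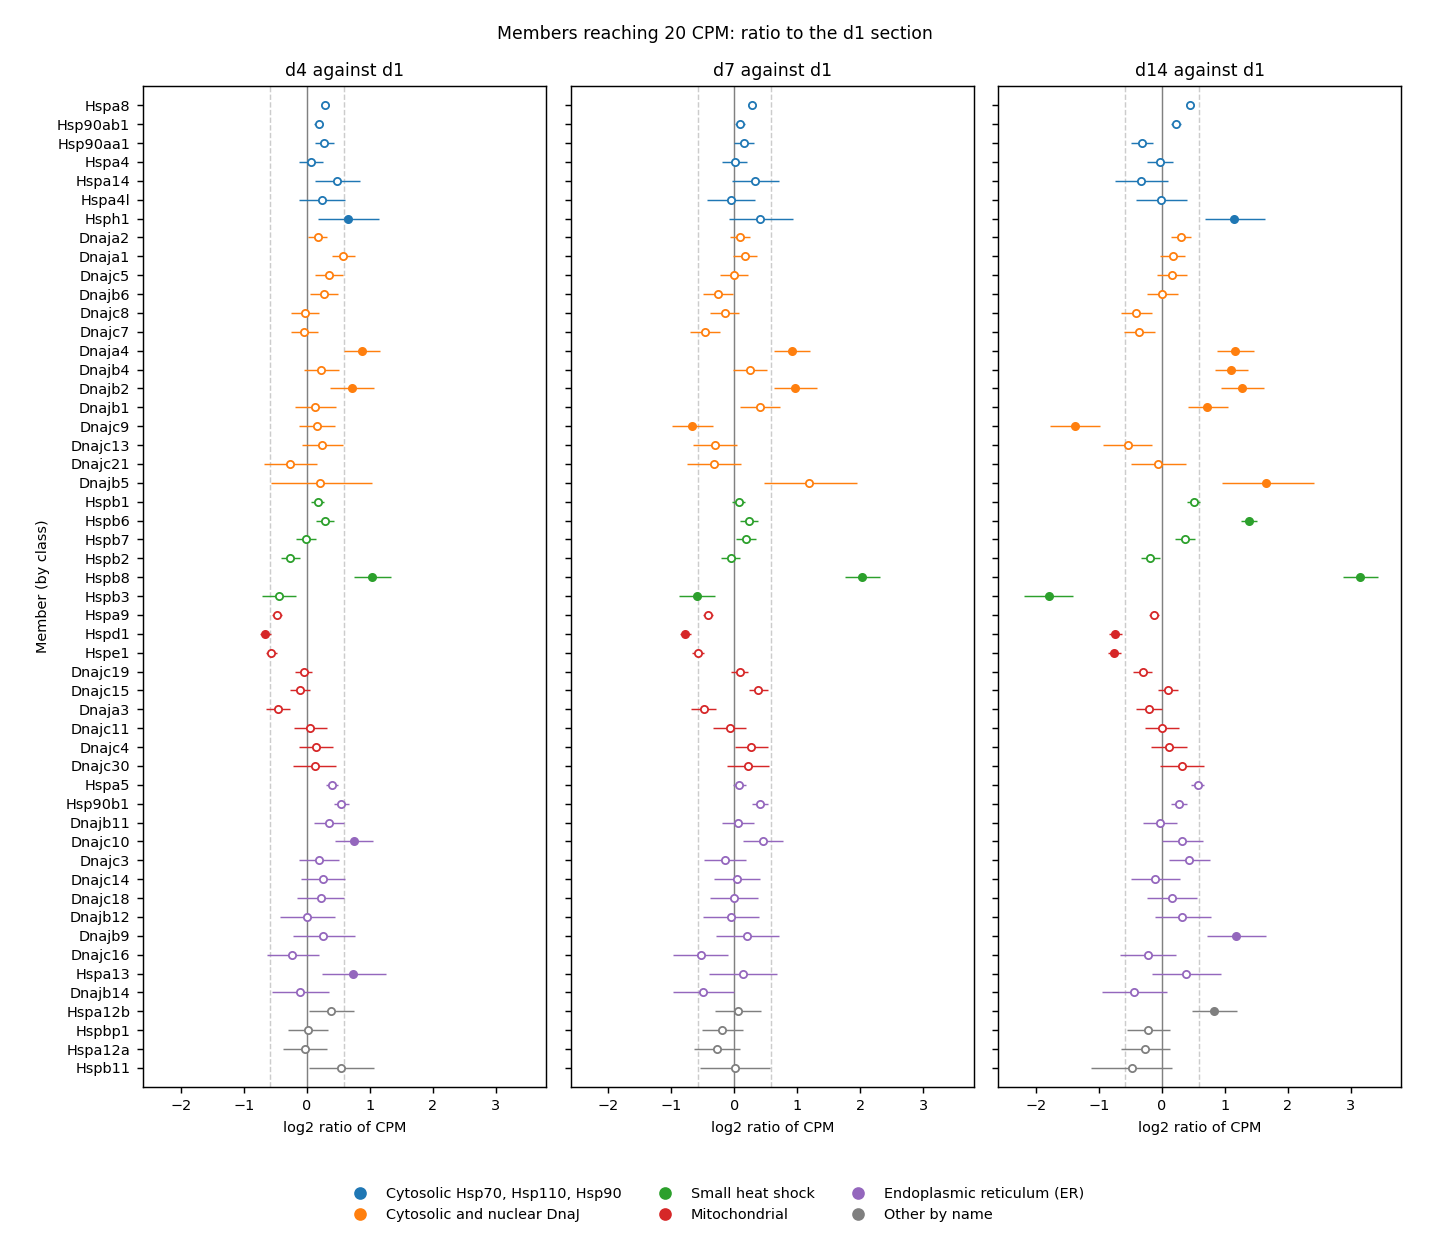
Log2 ratio of CPM at d4, d7 and d14 to d1 (x axis) for the 52 members that reached 20 CPM in a section (y axis, by class). Bars are 95% intervals for counting error, dashed lines mark 1.5-fold and filled points are members counted as higher or lower; Hspb8 has the highest ratio of the 52 in all 3 panels, at 1.04, 2.03 and 3.14.

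At d14 the small heat shock genes held both the highest and the lowest ratio among the 52 members (Hspb8 and Hspb3). Hspb8, whose protein works with the co-chaperone Bag3 in the clearance of damaged muscle proteins, had 38.1 CPM in the d1 section (95% interval 31.7 to 45.5), 78.5 in d4 (71.5 to 86), 155 in d7 (145 to 166) and 337 in d14 (320.2 to 355), from 123, 459, 865 and 1452 UMIs. The level was higher at each later time point, and the intervals of neighbouring sections did not overlap. Its ratios to d1 were 2.06 (1.68 to 2.53), 4.07 (3.37 to 4.96) and 8.84 (7.35 to 10.7). The step from d4 to d7 was 1.98-fold (1.76 to 2.22) and that from d7 to d14 was 2.17-fold (1.99 to 2.37). An Hspb8 UMI was found in 23.8%, 45.8%, 61.5% and 65.5% of spots in order of time. With every spot thinned to 2500 UMIs, which left out 40, 3, 3 and 131 shallower spots, the shares were 10.4%, 15.2%, 29.2% and 51.3%.

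Hspb8 (ENSMUSG00000041548) lies on the minus strand of chromosome 5 from 116408491 to 116422864 in GRCm38. The 250 bases before its start site, from RefSeq (GRCm38.p6) like the other windows, are shown as those of the member with the largest difference over time. They held none of the heat shock motifs searched, so no letter is in capitals.
Hspb8, chr5:116422865-116423114, minus strand: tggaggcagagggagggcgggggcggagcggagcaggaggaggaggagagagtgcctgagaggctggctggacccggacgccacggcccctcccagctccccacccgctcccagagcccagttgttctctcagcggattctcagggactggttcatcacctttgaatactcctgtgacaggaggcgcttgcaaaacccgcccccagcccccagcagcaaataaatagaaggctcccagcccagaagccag

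Hspb6 (Hsp20), which binds contractile and signalling proteins in muscle, had 189, 231, 222 and 493 CPM in order of time. The first 3 levels lay within 1.22-fold of d1 and the last stood apart, at 2.61 times the d1 level (2.38 to 2.86) and 2.22 times the d7 level (2.06 to 2.38). Hspb3, a muscle member that pairs with Hspb2, had the reverse order, with 62.6, 46.0, 41.5 and 18.1 CPM. It was 1.51-fold lower at d7 and 3.46-fold lower at d14 (ratios 0.662, 0.546 to 0.804, and 0.289, 0.220 to 0.377), and the d7 count was lost with TMM scaling and without the matrix-rich spots described below, while d4 was counted as lower with TMM scaling. Its partner Hspb2 had 189, 158, 182 and 167 CPM and was not counted in any comparison. Hspb1 (Hsp27) had 387, 435, 406 and 549 CPM, and Hspb7, which binds filamin in heart muscle, had 160.0, 158, 182 and 206. Both had their highest level at d14, at 1.42-fold (1.32 to 1.52) and 1.29-fold (1.16 to 1.44) the d1 level, under the 1.5-fold rule. Hspb9, a gene known from testis, had 1 UMI in all. The summed level of the class was 1026, 1106, 1188 and 1770 CPM, of which the d4 value lay below d1 with TMM scaling, and its median log2 ratios were 0.08, 0.13 and 0.43 against medians of 0.21, -0.00 and -0.04 over all genes.

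**Figure D2:**
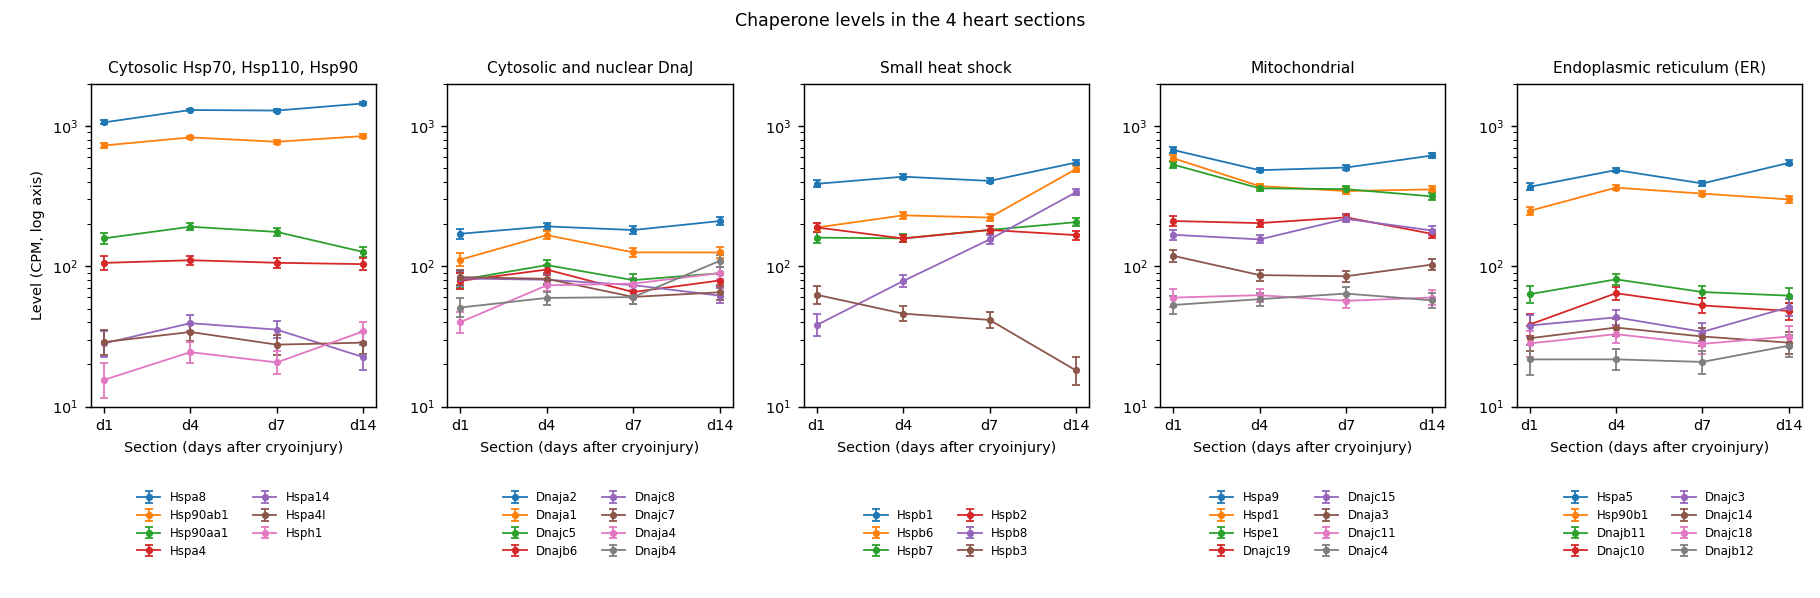
Level in CPM (log axis) of the members of each class that reached 20 CPM in a section, at most the 8 with the most UMIs, in the 4 sections (x axis), with 95% Poisson intervals for counting error; levels of different genes are not per length. Hspb8 is at 38.1 CPM in the first section and 337 in the last, Hspb3 at 62.6 and 18.1, and Hspd1 and Hspe1 are highest at d1.

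Mitochondrial members were highest at d1 for the genes of the main folding machines. Hspd1 (Hsp60), which forms the folding chamber of the mitochondrial matrix, had 589 CPM in the d1 section (563 to 616), 373 in d4 (357 to 389), 344 in d7 (329 to 359.6) and 353 in d14 (336 to 372). The d1 section stood above the other 3, which lay close together. The ratios to d1 were 0.633 (0.595 to 0.673), 0.584 (0.548 to 0.623) and 0.600 (0.560 to 0.642), that is 1.58-fold, 1.71-fold and 1.67-fold lower. Hspe1 (Hsp10), the lid of that chamber, was also highest at d1, with 531, 359.5, 355 and 315 CPM. Its ratios were 0.678 (0.635 to 0.723), 0.668 (0.626 to 0.714) and 0.593 (0.552 to 0.637), so that only d14 passed the 1.5-fold rule; the other 2 lay just inside it, d4 passed with TMM scaling, and d7 passed with CPM over all genes and without the matrix-rich spots.

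Hspa9 (mortalin), the mitochondrial Hsp70, was at 674, 484, 505.5 and 616 CPM. Its d4 ratio of 0.718 (0.678 to 0.759) and d7 ratio of 0.750 (0.709 to 0.793) lay under the rule, although the d4 value passed with TMM scaling, and at d14 the ratio was 0.914 (0.863 to 0.968). Dnaja3 (Tid1), its DnaJ partner, had 119, 86.5, 84.9 and 103 CPM, also with d1 highest and d14 next, and passed the rule only with TMM scaling (d4) or CPM over all genes (d7). The import motor subunits Dnajc19, at 210.3, 203, 223 and 170.0 CPM, and Dnajc15, at 168, 155, 218 and 179.8 CPM, showed no such order. Dnajc11 ranged from 56.7 to 62.3 CPM, Dnajc4 from 53.0 to 63.9 and Dnajc30 from 34.4 to 42.7, none past the rule. The 9 genes summed to 2438, 1819, 1891 and 1897 CPM, with median log2 ratios of -0.11, -0.08 and -0.13.

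Hspd1 (ENSMUSG00000025980, minus strand, 55077835 to 55088243) and Hspe1 (ENSMUSG00000073676, plus strand, 55088132 to 55091307) stand head to head on chromosome 1 and their annotated 5′ ends overlap. The 215 bases between their RefSeq start sites are shown because the 2 genes share them and both were highest at d1. Heat shock elements, the binding motif of heat shock factors, are arrays of inverted GAA units. Capitals mark matches to GAANNTTC, TTCNNGAA or the 3-unit forms GAANNTTCNNGAA and TTCNNGAANNTTC, which contain them, on either strand.
Hspd1-Hspe1 interval, chr1:55087933-55088147, plus strand: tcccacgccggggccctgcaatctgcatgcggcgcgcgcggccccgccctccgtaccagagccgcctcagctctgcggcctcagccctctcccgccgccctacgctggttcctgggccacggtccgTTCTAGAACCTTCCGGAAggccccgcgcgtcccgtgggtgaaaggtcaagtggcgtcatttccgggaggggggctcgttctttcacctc
The 3-unit form was in 4 of the 77 windows of 250 bases found for 60 of the members (those of Hspd1, Hspe1 and Dnajb6) and in 0.466% of the 32851 windows of all genes. These 4 windows are not separate sites. Hspd1 and Hspe1 share the interval shown, and the Dnajb6 windows overlap and hold the same match. Windows that share bases were counted separately for every motif. The 2-unit form GAANNTTC was in 12 of 77 and 6.69% of all windows, and TTCNNGAA in 8 of 77 and 7.17%. A match is a description of the letters and not a measured site.

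Among the cytosolic Hsp70, Hsp110 and Hsp90 genes, the constitutive members differed little. Hspa8 (Hsc70), the housekeeping Hsp70, had 1061, 1299.6, 1288 and 1446 CPM, with ratios of 1.23 (1.18 to 1.28), 1.21 (1.17 to 1.26) and 1.36 (1.31 to 1.42). Hsp90ab1, the constitutive Hsp90, was at 726, 829, 772 and 847 CPM, and its d7 ratio of 1.06 turned below 1 with CPM over all genes. The inducible Hsp90aa1 had its lowest level at d14, with 158, 191, 176 and 127 CPM. None of these 3 passed the rule. Hsph1 (Hsp110), a nucleotide exchange factor of Hsp70, did so at d4 and d14 on low counts, with 15.5, 24.5, 20.7 and 34.4 CPM from 50, 143, 115 and 148 UMIs. It was 1.58-fold (1.14 to 2.22) the d1 level at d4, a count lost with TMM scaling, with means over spots and without the matrix-rich spots, and 2.22-fold (1.60 to 3.12) at d14. Hspa4 (104 to 110.5 CPM), Hspa4l (27.7 to 34.0) and Hspa14 (22.5 to 39.3) were not counted, although Hspa14 was higher at d4 with means over spots. The class had median log2 ratios of 0.39, 0.30 and 0.28.

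The stress-inducible Hsp70 genes Hspa1a and Hspa1b were barely detected. Hspa1a had 0, 26, 22 and 28 UMIs in order of time, or 0, 4.45, 3.95 and 6.5 CPM, and the exact 95% Poisson interval of the 0 at d1 reaches up to 1.14 CPM. Hspa1b had 7, 21, 24 and 27 UMIs, or 2.17, 3.59, 4.31 and 6.27 CPM. The 2 genes are near-identical copies, so how many of their reads were counted, and for which gene, is uncertain for each alone and for the pair. Taken as a pair they had 2.17, 8.04, 8.26 and 12.8 CPM, with ratios to d1 of 3.70 (1.66 to 9.71), 3.81 (1.71 to 9.99) and 5.89 (2.67 to 15.3). The pair stayed under the 20 CPM minimum in every section.

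In their windows on chromosome 17, which lie before the start sites, 3 of 250 bases differ (98.8% identical). The transcripts themselves were not compared. Capitals mark the GAANNTTC match that both windows hold at the same place.
Hspa1a, chr17:34972157-34972406, minus strand: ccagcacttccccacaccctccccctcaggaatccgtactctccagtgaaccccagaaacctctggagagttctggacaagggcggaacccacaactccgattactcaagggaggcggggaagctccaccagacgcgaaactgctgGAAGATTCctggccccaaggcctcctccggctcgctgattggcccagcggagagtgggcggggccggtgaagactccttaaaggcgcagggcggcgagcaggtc
Hspa1b, chr17:34959239-34959488, minus strand: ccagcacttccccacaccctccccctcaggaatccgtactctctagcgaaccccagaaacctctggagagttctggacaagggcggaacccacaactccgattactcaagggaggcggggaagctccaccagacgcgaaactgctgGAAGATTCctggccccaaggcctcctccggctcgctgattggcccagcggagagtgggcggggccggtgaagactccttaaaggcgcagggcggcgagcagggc

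The cytosolic and nuclear DnaJ genes split into a few that were higher with time and a larger group that was not. Dnaja4, a close relative of Dnaja1, was at 40.0, 73.2, 75.2 and 89.4 CPM, with ratios to d1 of 1.83 (1.5 to 2.25), 1.88 (1.54 to 2.31) and 2.24 (1.83 to 2.75). Dnajb2, a ubiquitin-binding DnaJ that hands clients to the proteasome, was at 28.8, 47.2, 56.2 and 69.7 CPM, with ratios of 1.64 (1.29 to 2.09), 1.95 (1.54 to 2.48) and 2.42 (1.91 to 3.08). The d4 and d7 levels of Dnaja4 could not be told apart (1.03, 0.896 to 1.18), and the d4 count of Dnajb2 was lost with TMM scaling and with means over spots. Dnajb4, a relative of Dnajb1, was at 50.9, 59.5, 60.3 and 109 CPM, flat until a d14 level 2.15-fold (1.79 to 2.58) that of d1.

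Dnajb1, the heat-inducible Hsp40 of the cytosol, was at 38.1, 41.9, 50.5 and 63.0 CPM and was counted at d14 alone, at 1.65-fold (1.33 to 2.06), a count lost with means over spots. Dnajb5, another relative, reached 20 CPM only at d14, with 6.51, 7.53, 14.7 and 20.4 CPM and a d14 ratio of 3.14 (1.93 to 5.32), and lost its count with CPM over all genes. The DnaJ with the reverse order was Dnajc9, which also binds histones and is known from dividing cells. It was at 48.7, 54.4, 30.7 and 18.8 CPM, 1.59-fold lower at d7 and 2.59-fold lower at d14 (0.386, 0.292 to 0.508). Dnaja1 (112 to 167 CPM), Dnaja2 (171 to 210.0), Dnajb6 (65.5 to 94.8), Dnajc5 (79.7 to 102), Dnajc7 (60.5 to 83.7), Dnajc8 (61.8 to 81.9), Dnajc13 (24.9 to 42.9) and Dnajc21 (20.3 to 25.4) were not counted, although Dnaja1 was at d4 without the matrix-rich spots and Dnajc13 was lower at d14 with CPM over all genes or means over spots. The class medians were 0.22, 0.09 and 0.06, near those of all genes.

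Of the 14 ER members, 12 lay above their d1 level at d4 and 10 at d14, mostly by amounts under the rule. At d4 the class median log2 ratio of 0.26 was near the 0.21 of all genes. Hspa5 (BiP), the Hsp70 of the ER, had 368, 485, 389 and 546 CPM. The d1 and d7 levels could not be told apart (ratio 1.06, 0.984 to 1.14), while d4 at 1.32-fold (1.23 to 1.41) and d14 at 1.48-fold (1.38 to 1.59) stood above them, the last past 1.5-fold with TMM scaling and without the matrix-rich spots. Hsp90b1 (Grp94), the Hsp90 of the ER, was at 248, 363, 329.5 and 299.7 CPM and was highest at d4, at 1.46-fold (1.35 to 1.59). Dnajc10 (ERdj5), a disulfide reductase, was at 38.5, 64.3, 52.6 and 48.1 CPM and was counted at d4, at 1.67-fold (1.36 to 2.07). Hspa13, an Hsp70 of the ER without a client-binding domain, was at 14.3, 23.8, 15.6 and 18.6 CPM and was also counted at d4, at 1.67-fold (1.19 to 2.38). With TMM scaling, neither Dnajc10 nor Hspa13 was counted at d4.

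Dnajb9 (ERdj4), a repressor of the ER stress sensor Ire1, was at 16.1, 19.3, 18.5 and 36.5 CPM, with a d14 level 2.26-fold (1.64 to 3.16) that of d1. Dnajb11 (61.8 to 80.7 CPM) and Dnajc3 (34.1 to 51.1), which serve BiP in the ER lumen, were not counted. Neither were the membrane DnaJ genes Dnajb12 (20.8 to 27.2 CPM), Dnajb14 (14.7 to 20.8), Dnajc14 (28.6 to 36.6), Dnajc16 (18.0 to 26.1) and Dnajc18 (28.0 to 32.8). Dnajb14 was, however, lower at d7 with means over spots and at d14 without the matrix-rich spots. Dnajc16 was lower at d7 with CPM over all genes. The class medians of 0.26, 0.07 and 0.32 lay above those of all genes by the most at d14.

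The ER stress response element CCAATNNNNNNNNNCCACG was in 3 of the 77 member windows (Hspa5, Hsp90b1 and Dnajc3) and in 0.113% of all windows, searched on both strands. These 3 windows are shown because they hold the element. In the matrix-rich spots below, Hsp90b1 and Dnajc3 passed the test and Hspa5 lay near its threshold. The ER members Dnajc10 and Hspa13 also passed there and are not among the members with a match. A link between the element and these calls was not tested. Capitals mark the matches.
Hspa5, chr2:34771840-34772089, plus strand: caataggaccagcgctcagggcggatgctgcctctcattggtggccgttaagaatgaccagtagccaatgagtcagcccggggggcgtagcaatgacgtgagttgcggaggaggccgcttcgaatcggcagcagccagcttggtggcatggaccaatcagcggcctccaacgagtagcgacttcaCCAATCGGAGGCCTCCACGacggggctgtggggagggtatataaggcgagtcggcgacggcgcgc
Hsp90b1, chr10:86705445-86705694, minus strand: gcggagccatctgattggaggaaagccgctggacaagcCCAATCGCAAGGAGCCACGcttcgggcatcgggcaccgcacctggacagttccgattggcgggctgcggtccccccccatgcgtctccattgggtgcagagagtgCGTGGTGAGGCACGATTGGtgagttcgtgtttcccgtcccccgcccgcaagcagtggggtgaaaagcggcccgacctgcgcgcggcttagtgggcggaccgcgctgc
Dnajc3, chr14:118937682-118937931, plus strand: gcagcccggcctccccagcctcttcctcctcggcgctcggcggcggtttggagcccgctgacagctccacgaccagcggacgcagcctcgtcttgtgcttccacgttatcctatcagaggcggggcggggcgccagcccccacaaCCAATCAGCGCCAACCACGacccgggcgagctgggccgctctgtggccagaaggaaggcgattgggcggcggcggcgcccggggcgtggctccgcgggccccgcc

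Of the members grouped by name, Hspa12b, an atypical Hsp70 known from endothelial cells, was counted at d14, with 30.1, 39.3, 31.2 and 53.4 CPM and a ratio of 1.78 (1.40 to 2.28). Endothelial markers summed to 782, 987, 911 and 1090 CPM beside it, and their part in that difference was not tested. Hspbp1, an exchange factor of Hsp70, had 35.3 to 41.4 CPM, Hspa12a 27.3 to 33.2 and Hspb11 9.99 to 20.4, none counted. Hspbap1 had 1.26 to 3.95 CPM.

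The 23 members that never reached 20 CPM could not be judged by the rule. Beside Hspa1a, Hspa1b, Hspb9 and Hspbap1, they included Hspa1l, Hspa2, Dnajb3, Dnajb7, Dnajb8, Dnajc2, Dnajc5b, Dnajc5g, Dnajc6, Dnajc12, Dnajc17, Dnajc24, Dnajc27, Dnajc1, Dnajc25, Dnajb13, Dnajc22 and Dnajc28. Dnajc2 (16.4 to 19.8 CPM) and Dnajc1 (8.68 to 19.5 CPM) came closest to it.

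The members were next compared within sections. Spots were ranked in each section by how much of their UMIs came from 24 extracellular matrix genes, such as Col1a1, Col3a1, Fn1, Postn and Tnc, and the top 10% (44, 66, 77 and 118 spots in order of time) were called matrix-rich and set against the rest. No member is in that list, and spot positions were not used, so the set is not a mapped scar. At d1 it was weakly set apart, since 333 of 445 spots lay within 1 percentage point of the limit. Counts were summed over both sets in each section, and the 4 sections served as a block in edgeR's quasi-likelihood test, with p-values adjusted by Benjamini-Hochberg over 10656 genes. The 4 hearts differ in age, so this test asks for what they share.

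Of 62 members tested, 8 were higher and 14 lower in the matrix-rich spots, against 13.7% and 12.6% of all genes tested. Within single sections, where spots are no replicates and there is no test, 7 of 49 members passed 1.5-fold upward and 4 downward at d1 (18.5% and 6.88% of all genes). At d4 the counts were 8 and 10 of 54 (21.1% and 14%), at d7 8 and 9 of 51 (22.8% and 10.1%), and at d14 6 and 5 of 52 (22.6% and 7.79%). By CPM the all-gene median in matrix-rich spots was 0.209, 0.115, 0.241 and 0.256 (log2) above the rest, against 0.02 in the TMM-scaled test. CPM ratios thus lie somewhat above the fitted values. Where sections are counted as higher or lower below, the CPM ratio is set against 1 and not against that median. Dnaja1, for one, lay above 1 in 4 of 4 sections with a fitted log2 fold change of -0.04. The members that were lower came mainly from the mitochondrial and small heat shock classes and the higher ones from the ER and the cytosolic Hsp classes.

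Markers of other cells moved with this split. All 15 cardiomyocyte markers were lower in the matrix-rich spots (median log2 fold change -1.12) and summed to 36073 to 78132 CPM there against 87606 to 129217 in the rest. All 9 fibroblast markers (median 1.48) and all 9 macrophage markers tested of 10 (median 1.87) were higher. Of 7 epicardial markers tested, 5 were higher and none lower (median 2.39), and of 8 mural cell markers 5 were higher and 3 lower (median 0.87). At d7 the matrix-rich spots also held skeletal muscle markers at 344 against 32.5 CPM and red blood cell genes at 31759 against 7481 (19686 against 5941 at d14), whereas the skeletal muscle sum was at most 38.9 CPM in the matrix-rich spots of the other sections. The part of this mixture of cells in the differences that follow was not tested.

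**Figure D3:**
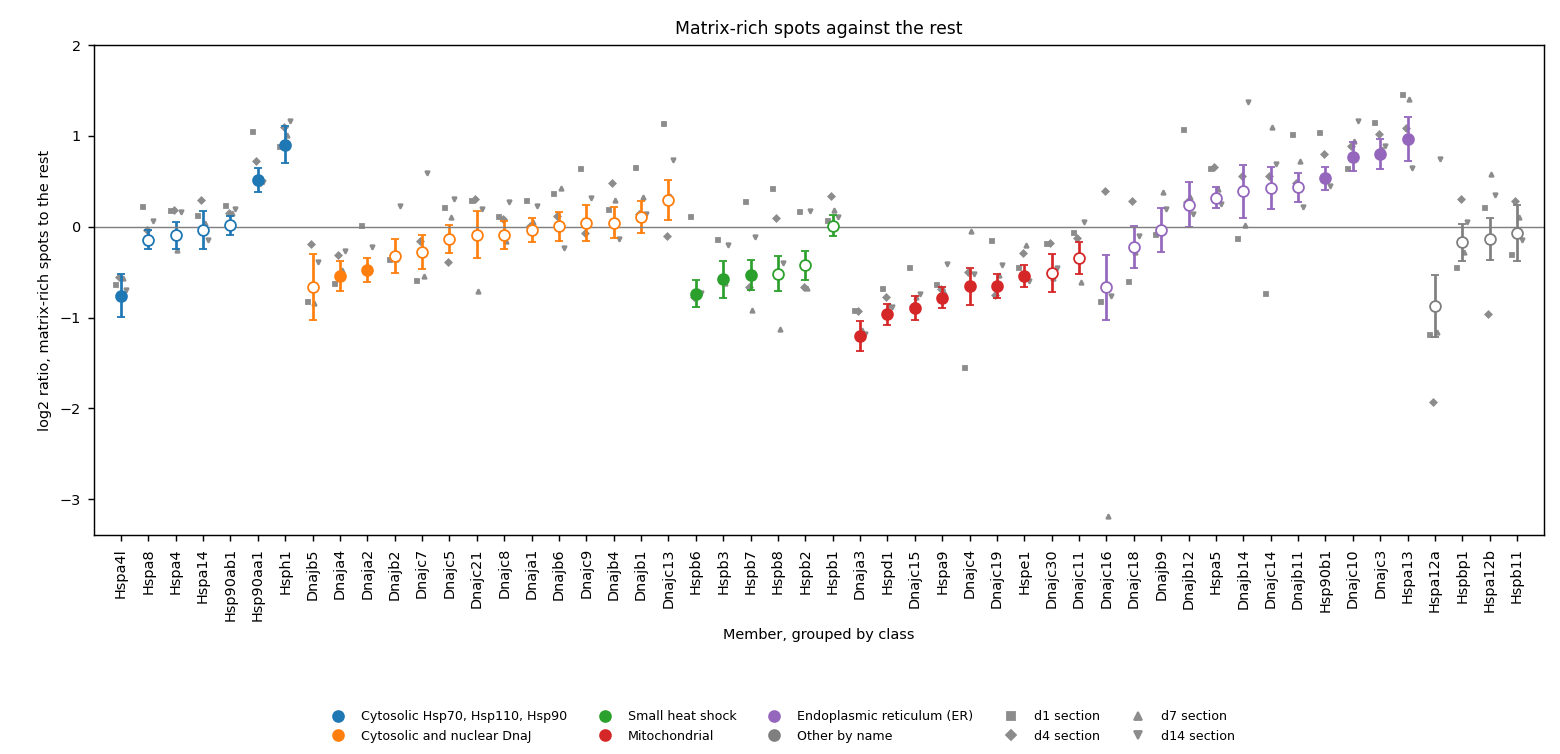
Log2 ratio of matrix-rich spots to the rest (y axis) for members that reached 20 CPM in a section, by class (x axis). Large points are edgeR estimates over the 4 sections with TMM scaling and bars of 1 SE, filled where the adjusted p was under 0.05, and small grey points are the CPM ratios of single sections; filled mitochondrial points lie between -1.20 and -0.54 and filled ER points between 0.54 and 0.97.

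Of the 9 mitochondrial members, 7 were lower in matrix-rich spots and none was higher, with a class median log2 fold change of -0.66 against 0.02 over all genes. Dnaja3 had the largest difference of the class, with 124, 92.1, 89.0 and 109 CPM in the rest and 64.7, 48.3, 40.6 and 48.0 in the matrix-rich spots. It was lower in 4 of 4 sections and 2.30-fold lower over them (log2 -1.20 ± 0.16 SE, adjusted p = 2.32e-05 by edgeR). Hspd1 was at 608, 394, 357 and 371 CPM in the rest and 377, 229, 197 and 201 in the matrix-rich spots, also lower in 4 of 4 sections (-0.97 ± 0.12, adjusted p = 6.82e-06). Hspa9 had 695, 509, 523 and 632 CPM in the rest and 445, 315, 318 and 476 in the matrix-rich spots (-0.78 ± 0.11, adjusted p = 3.88e-05). For these 3 genes the 95% interval of the ratio lay below 1 within each of the 4 sections.

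Hspe1, the partner of Hspd1, had a smaller difference, with 543, 368, 359 and 326 CPM in the rest and 396, 302, 312 and 215 in the matrix-rich spots (-0.54 ± 0.12, adjusted p = 0.00226). Dnajc15 (-0.89 ± 0.14, adjusted p = 7.07e-05) and Dnajc19 (-0.65 ± 0.13, adjusted p = 0.00122) were lower in 4 of 4 sections. Dnajc4 (-0.66 ± 0.20, adjusted p = 0.0216) was too, but its call was lost without d1, without d4 or without d14 (adjusted p up to 0.0616). Dnajc30 (-0.51, adjusted p = 0.0798) and Dnajc11 (-0.34, adjusted p = 0.181) did not pass.

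In the small heat shock class, 3 of 6 members tested were lower and none was higher. Hspb6 was at 188, 244, 230 and 514 CPM in the rest and at 202, 142, 139 and 309 in the matrix-rich spots. It was thus lower in 3 of 4 sections (-0.74 ± 0.15, adjusted p = 0.00095). At d1 the interval of the ratio included 1 (1.07, 0.79 to 1.43). Hspb7 had 157, 166, 189 and 208 CPM in the rest and 190.3, 105, 100.4 and 192 in the matrix-rich spots (-0.53 ± 0.16, adjusted p = 0.0221). Its intervals included 1 at d1 (1.21, 0.88 to 1.62) and at d14 (0.92, 0.73 to 1.16). Hspb7 lost its call without d4 or without d7 (-0.36 without d7, adjusted p = 0.194). Hspb3 (-0.58 ± 0.21, adjusted p = 0.046) passed barely and not without d4, d7 or d14 (adjusted p up to 0.178).

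Hspb8 missed the threshold (-0.52 ± 0.19, adjusted p = 0.054). Its CPM were 37.1, 77.8, 163 and 346 in the rest and 49.5, 83.2, 74.8 and 263 in the matrix-rich spots. The matrix-rich spots were thus lower at d7 and d14. At d1 and d4 the intervals of the ratio included 1 (1.33, 0.69 to 2.37, and 1.07, 0.80 to 1.40). Hspb8 passed without d1 (adjusted p = 0.029) and without d4 (adjusted p = 0.0128), while without d7 its log2 fold change was -0.25. Hspb2 (-0.43 ± 0.16, adjusted p = 0.0541) was likewise lower at d4 and d7 only and passed without d1 or without d14. Hspb1 showed little difference in the test (0.01 ± 0.11, adjusted p = 0.963), with matrix-rich CPM of 403, 533, 455 and 585 against 386, 421, 402 and 545.

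Of the 14 ER members, 4 were higher and none lower, and the class median was 0.41. Hsp90b1 was at 229, 332, 317 and 289 CPM in the rest and 468, 578, 461 and 396 in the matrix-rich spots, higher in 4 of 4 sections (0.54 ± 0.13, adjusted p = 0.00348). Dnajc3 (P58IPK), which serves BiP and restrains the stress kinase Perk, was at 34.4, 38.2, 32 and 47.1 CPM against 76.1, 77.8, 57.7 and 86.9 (0.80 ± 0.17, adjusted p = 0.00141). Dnajc10 was at 36.8, 58.0, 48.8 and 42.7 CPM against 57.1, 107, 94 and 96 (0.77 ± 0.16, adjusted p = 0.00131). In all 3 the matrix-rich spots lay above the rest in every section.

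Hspa13 (0.97 ± 0.25, adjusted p = 0.00629) was at 12.5, 20.8, 13.7 and 17.6 CPM in the rest and at 34.3, 44.3, 36.3 and 27.4 in the matrix-rich spots, there from 9 to 33 UMIs in a section, and lost its call without d4 (adjusted p = 0.0643). The matrix-rich level of Hspa5 was higher by CPM in 4 of 4 sections (548, 712, 504 and 636 CPM against 352, 452, 379 and 536). At d14 that ratio was 1.19 (1.04 to 1.35), and the all-gene median by CPM was also above the rest. In the edgeR test Hspa5 missed the threshold (0.32 ± 0.12, adjusted p = 0.054) and passed without d14 (0.42, adjusted p = 0.0344). Dnajb11 did likewise (0.43 ± 0.16, adjusted p = 0.057, and 0.0278 without d14).

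Of 10 cytosolic Hsp genes tested, 4 were higher and 1 lower, with a class median of 0.07. Hsp90aa1 was at 146, 177, 170.2 and 122 CPM in the rest and 301, 291, 237 and 172 in the matrix-rich spots (0.52 ± 0.13, adjusted p = 0.00699), but lost its call without d4 (0.43, adjusted p = 0.0716). Hsph1 was at 14.5, 21.4, 19.0 and 30.5 CPM against 26.6, 45.6, 38.5 and 68.6 (0.90 ± 0.21, adjusted p = 0.00278), higher in 4 of 4 sections. Its matrix-rich values rest on 7, 34, 18 and 30 UMIs, and the d1 interval of the ratio included 1 (1.83, 0.70 to 4.11). The constitutive partners did not pass, with Hsp90ab1 at 0.02 ± 0.10 (adjusted p = 0.939) and Hspa8 at -0.15 ± 0.11 (adjusted p = 0.356). Hspa4l, an Hsp110 relative, was lower (-0.76 ± 0.24, adjusted p = 0.022), a call lost without d4, d7 or d14 (adjusted p up to 0.077).

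Hspa1a and Hspa1b were higher on very few UMIs, so that their fitted values depend on the prior count. Hspa1a had 0, 8, 6 and 7 UMIs in the matrix-rich spots (1.53 ± 0.47, adjusted p = 0.0215) and Hspa1b 1, 10, 4 and 6 (1.49 ± 0.48, adjusted p = 0.0264). As a pair they were at 5.69 CPM in the rest and 24.1 in the matrix-rich spots at d4, a ratio of 4.25 (2.22 to 7.91), with 3.03 (1.34 to 6.23) at d7 and 2.74 (1.35 to 5.20) at d14. Neither passed without d7 (adjusted p = 0.127 and 0.0556), and without d4 or d14 both were under the filter on low counts and not tested.

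No DnaJ gene of the cytosol or nucleus was higher and 2 of 18 were lower, with a class median of -0.09. These were Dnaja2 (-0.48 ± 0.13, adjusted p = 0.0111), lower in 3 of 4 sections and lost without d7 (adjusted p = 0.0864), and Dnaja4 (-0.54 ± 0.17, adjusted p = 0.0217), lower in 4 of 4 and lost without d7 or d14 (adjusted p up to 0.103). The heat-inducible Dnajb1 was at 36.5, 41.4, 49.4 and 62.3 CPM in the rest and 57.1, 45.6, 62.0 and 68.6 in the matrix-rich spots (0.11 ± 0.18, adjusted p = 0.72). Among the members grouped by name, Dnajc28 was lower (-1.33 ± 0.45, adjusted p = 0.0367) on 1 to 5 UMIs in the matrix-rich spots, and not without d4, d7 or d14 (adjusted p up to 0.181). Hspa12a (-0.87, adjusted p = 0.0667) passed without d14 (-1.64, adjusted p = 0.000941). Hspbp1 (-0.17, adjusted p = 0.644) and Hspb11 (-0.07, adjusted p = 0.961) did not pass, and Hspbap1 was under the filter.

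Other regions and other fits ended some of these calls. A Leiden cluster of each section was also used in place of the matrix-rich spots. It shared 14 of its 16 spots with them at d1, 52 of 52 at d4, 51 of 54 at d7 and 99 of 201 at d14. Before d14 it was thus mostly the same spots, and it is not an independent check of the region. With this cluster, 13 of the 22 calls held by edgeR. Hsp90b1 (adjusted p = 0.0663), Dnajc10 (0.0533), Dnajc19 (0.0566), Dnajc4 (0.0706), Hspb3 (0.117), Dnaja4 (0.152), Hspa4l (0.152) and Hspa1a (0.16) missed the threshold, and Hspa1b was not tested. With the top 20% of spots, 16 held, and Dnajc4, Dnajc28, Hspa4l, Hspb3 and Hspa1a missed it, again with Hspa1b not tested. With DESeq2, 14 held, and Dnaja4, Dnajc4, Dnajc28, Hspa4l, Hspb3, Hspb7, Hspa1a and Hspa1b missed it. Without the section as block, 7 held: Dnaja3, Dnajc10, Dnajc15, Dnajc3, Hspa13, Hspa4l and Hspd1. Without any 1 section, 11 of the 22 calls held each time: Dnaja3, Dnajc15, Dnajc19, Hspa9, Hspd1, Hspe1, Hspb6, Hsp90b1, Dnajc3, Dnajc10 and Hsph1.

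**Figure D4:**
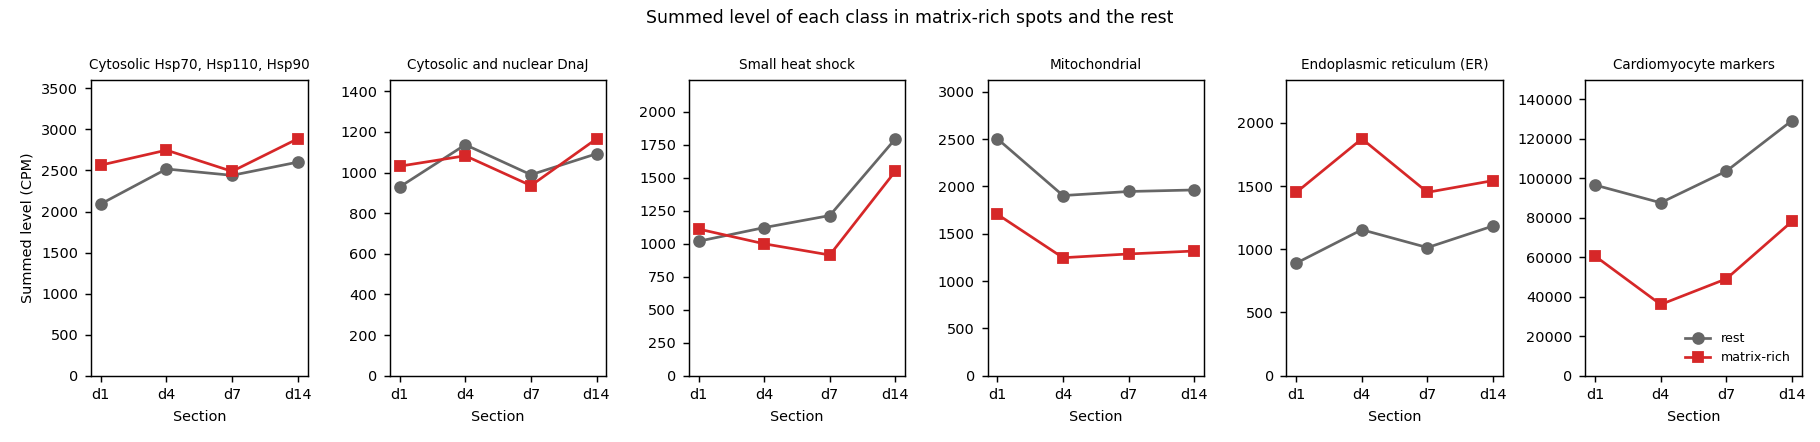
Summed CPM (y axis, from 0) of each member class and of 15 cardiomyocyte markers in the matrix-rich spots (red squares) and in the rest (grey circles) of the 4 sections (x axis). The mitochondrial sum is 1246 to 1705 CPM in the matrix-rich spots and 1903 to 2503 in the rest, and the ER sum is 1450 to 1874 against 890.3 to 1185.

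Summed over the class, ER members were 1.63, 1.62, 1.43 and 1.3 times as high in matrix-rich spots as in the rest in order of time, and mitochondrial members 0.681, 0.655, 0.661 and 0.671 times. Cardiomyocyte markers had ratios of 0.627, 0.412, 0.473 and 0.605 beside them. The small heat shock sum had ratios of 1.09 (0.964 to 1.23), 0.891 (0.824 to 0.962), 0.754 (0.682 to 0.831) and 0.864 (0.797 to 0.935), and the d1 interval included 1. The plot of class sums shows the ER and mitochondrial sums on opposite sides of the rest in all 4 sections. All these ratios are of CPM and not from the TMM-scaled test. Hspa5 and Hsp90b1 held most of the ER sum, with 548 and 468 of 1450 CPM in the d1 matrix-rich spots.

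Genes that work with the members were read from lists chosen with results of these data known. Of 20 co-chaperones of Hsp70 and Hsp90, 19 reached 20 CPM in each comparison with d1. The counts higher and lower were 1 and 1 for d4, 1 and 1 for d7, and 2 and 0 for d14. Bag3, the partner of Hspb8, was at 81.9, 132, 152 and 221 CPM, with ratios of 1.61 (1.40 to 1.86), 1.86 (1.62 to 2.15) and 2.70 (2.35 to 3.10), and was lower in matrix-rich spots (-0.46 ± 0.14, adjusted p = 0.0173). Fkbp5, a co-chaperone of steroid receptors, had 71.6, 17.4, 6.29 and 54.4 CPM, 4.11-fold lower at d4 and 11.4-fold lower at d7. Fkbp4, its relative, was higher at d14 alone, at 254 against 168 CPM. In matrix-rich spots 3 of the 20 were lower (Bag3, Fkbp4 and the myosin chaperone Unc45b) and 1 (Fkbp5) was higher.

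Of the heat shock factors, Hsf1 was at 22.9, 32.7, 28.2 and 24.4 CPM and not counted, Hsf2 was 1.55-fold lower at d14, and Hsf4 and Hsf5 had at most 2 UMIs in a section. The TRiC chaperonin, which folds actin and tubulin, had 0 of 8 subunits counted before d14 and 3 lower at d14, among them Tcp1 at 283 against 162 CPM. No TRiC subunit passed in matrix-rich spots. Cryab, the alpha-crystallin of heart, was at 1173, 1310.2, 1536 and 1595 CPM, not counted over time, and lower in matrix-rich spots (-0.38 ± 0.13, adjusted p = 0.0304).

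Of 16 ER folding and stress genes measured, 12 were higher in matrix-rich spots and 1 lower. The collagen chaperone Serpinh1 (0.99 ± 0.12, adjusted p = 8.16e-06), calreticulin (Calr, 0.96 ± 0.11, adjusted p = 5.12e-06) and the disulfide isomerase P4hb (1.11 ± 0.12, adjusted p = 1.51e-06) were among the 12, and Herpud1 (-0.90 ± 0.15, adjusted p = 0.000248) was the exception. Over time 3 of the 13 that reached 20 CPM were higher at d4, 1 of 12 at d7 and 5 of 14 at d14. Herpud1 was lower at d4 and d7 (147, 89.1 and 88.9 CPM) and higher at d14 (289). Of 11 mitochondrial folding and protease genes, 5 were lower and none higher in matrix-rich spots, among them Trap1, the mitochondrial Hsp90 (-1.04 ± 0.15, adjusted p = 4.09e-05). Over time 1 of 10, 0 of 10 and 1 of 9 that reached 20 CPM were higher. Of 14 immediate early genes, which are switched on within minutes by stress and handling, 9, 12 and 8 reached 20 CPM at d4, d7 and d14 or at d1. Of these, 6, 10 and 5 were higher than at d1, and none was lower. Over all genes the shares higher were 14.8%, 8.34% and 15.6%. In matrix-rich spots 3 of the 13 tested were higher and none was lower, against 13.7% and 12.6% of all genes tested. By CPM the 14 genes summed to 750, 792, 1026 and 933 there, against 360, 646, 891 and 649 in the rest, in order of time. The part of the immediate early genes in the values above was not tested.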

How the data were processed

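RNA was measured on 4 Visium sections, 1 at each time point. The deposited counts are UMI counts per gene and spot made by the authors, and per the file headers the software was Space Ranger 1.3.0. Of the other names, mm10 and Seurat 4.1.1 are given without a role per the submitters' processing notes. How the listed spots were selected is not given in the sources used here. Spots with at least 500 UMIs were kept, UMIs were pooled per section, and CPM was computed without 8 haemoglobin and 13 mitochondrially encoded genes. Sections share 248 to 754 barcodes, which are array positions and not shared cells. Doublet calling does not apply to spots. Intervals are exact (Poisson for levels, conditional binomial for ratios, Clopper-Pearson for shares, 95%) and cover counting error only.

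Regions were tested with edgeR 4.0.16 (quasi-likelihood, TMM, filterByExpr, section as block, adjusted p under 0.05) in R 4.3.3, without the matrix list. Other choices tried were other scalings, filters and folds, DESeq2 1.42.0, a wider region, a Leiden cluster (scanpy 1.11.5, resolution 0.8, 15 components, without members) and leaving out each section. Scripts were tested on simulated data. All members that reached 20 CPM in a section could be named. Members and lists were chosen with earlier results of these data known. Promoter windows are from RefSeq (GRCm38.p6) for 60 of 75 members. The values of 1 member are not reported here.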

Additional observations from a re-analysis of the deposited data

How the results depend on the processing

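Between time points, no paired analysis was possible because each had 1 section and the labels give no shared replicate numbers, whereas the test of matrix-rich spots paired both sums of a section. Of the alternatives tried for the counts and medians, 189 stayed close to the reported value and 24 moved. TMM scaling took the all-gene median at d4 from 0.21 to 0.03, and with it 2 members were higher and 5 lower at d4, the DnaJ class median at d4 was 0.0319, and the d4 log2 ratios of the summed small heat shock class (-0.0772), Dnaja2 (-0.012) and Hspb1 (-0.0169) turned negative. CPM over all genes gave 6 lower members at d7, and turned the d7 log2 ratios of the summed cytosolic DnaJ class (-0.0357) and Hsp90ab1 (-0.0184) negative. A 2-fold rule left 1 higher and 0 lower at d4, 1 higher and 0 lower at d7 and 2 lower at d14. A minimum of 50 CPM left 3 higher at d4, and one of 10 CPM gave 5 higher at d7. Fewer genes reach the stricter limits by construction. The cause of the other changes was not tested.

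With the top 20% of spots as matrix-rich, the members lower within d1, d4, d7 and d14 numbered 1, 1, 1 and 1, and 4 were higher within d7. With a Leiden cluster, 4 were higher within d1 and 1 lower within d14, and 4 were higher over the 4 sections. Without the section as block, 3 were higher and 4 lower over the 4 sections, and DESeq2 gave 8 lower. Leaving out 1 section gave 4 to 10 higher and 8 to 15 lower members. No called member changed direction in any of these fits. Depth limits several called members: Hspa1a, Hspa1b, Hspa13, Hspa4l, Hspb3, Dnajc4 and Dnajc28 had at most 33 UMIs each in the matrix-rich spots of a section. Hsph1, with at most 34, and Dnaja3, with at most 36, were hardly deeper.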
